A study of Homo sapiens with 12 samples.

Results

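The transcriptional response of Huh7 cells to disulfiram and thalidomide given together was measured against solvent alone. Huh7 is an established human hepatocellular carcinoma cell line. The comparison used 3 libraries of cells given both drugs, called the combination below, and 3 libraries of cells given the solvent, DMSO, called control. Genes entered it when their TPM, the length-scaled share of transcripts in parts per 1000000, was at least 1 in at least 3 of these 6 libraries, which 14534 of the 59191 features in the table did. The study also holds 3 libraries with disulfiram alone and 3 with thalidomide alone, 12 in all. No source used here gives the dose units, the treatment time, how libraries were prepared or how deeply they were sequenced. The labels do not say whether the 3 libraries of a group are separate cultures. The p-values below measure only the spread of libraries within groups, estimated over all 12 libraries.

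Disulfiram inhibits aldehyde dehydrogenases, and its metabolite binds copper. The copper complex has been found to bind NPLOC4, which links the p97 ATPase to ubiquitinated proteins that it extracts from complexes and membranes for degradation. Thalidomide binds cereblon, a subunit that selects the substrates of a ubiquitin ligase, and changes which proteins the ligase recognises. Cells answer metal load by making metallothioneins through the metal-sensing factor MTF1, and damaged proteins by making heat shock proteins through HSF1. Sterol supply is set by SREBP factors, and amino acid shortage is answered by ATF4.

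Differences below are log2 fold changes on log2(TPM + 1) ± SE with 3 libraries per group, and adjusted p is limma's after Benjamini-Hochberg adjustment over all genes tested, with 0.05 as the threshold. The pseudocount of 1 makes differences of low genes smaller than their ratios. With both drugs 3913 genes, or 26.9% of those tested, passed the threshold, 2873 of them higher (19.8%) and 1040 lower (7.16%). At least 2-fold changes were found for 326 and 82 of them. The values of the 3 libraries of each group did not overlap for 5017 genes that were higher (34.5%) and 1837 that were lower (12.6%).

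The balance of rises and falls depended on scaling and on a gene's GC content. On the values as deposited the median difference of all genes was 0.20, and changes below on those values should be read against it. Median-of-ratios scaling, which removes this shift, gave 1407 genes higher (9.68%) and 1881 lower (12.9%). Across 14250 genes with a GC value, the difference followed the GC content of the gene's transcripts (Spearman's rho -0.45, across genes, which are not independent replicates and share the 6 libraries). With genes split into 5 equal groups by GC content, 868 of the GC-poorest group were higher (30.5%) and 16 lower (0.56%), and in the GC-richest group 292 were higher (10.3%) and 393 lower (13.8%). The difference of each combination library from the mean of the controls had a rho of -0.57, -0.07 and -0.50, so that the second combination library stood apart. A correction that removed each library's trend with GC content gave 1570 genes higher (11.0%) and 1919 lower (13.5%). It levels the 5 groups by construction, and their median differences then lay from -0.009 to 0.011, the level for reading corrected changes. The GC-poorest group had 200 higher and 234 lower, a balance that the correction itself brings. Whether the GC trend came from the libraries or from the cells was not tested. Without the second combination library, and without the second disulfiram library, which had a similar trend, 4488 genes were higher (30.9%) and 1358 lower (9.34%). A total of 965 genes were higher (6.64%) and 982 lower (6.76%) in all 4 of these analyses. The count of 3913 was 1707 without combination 1, 1509 without combination 3, 2109 without control 1 and 2195 without control 3. Small and large counts of called members in a list could change by several or more when 1 combination or control library was left out. The rises then ranged from 7 to 15 for the heat shock list described below, against 10 with all libraries. They ranged from 12 to 18 for the interferon list, against 17, and from 7 to 11 for class I presentation, against 10. The falls of the cholesterol list stayed at 14 to 15.

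**Figure D1:**
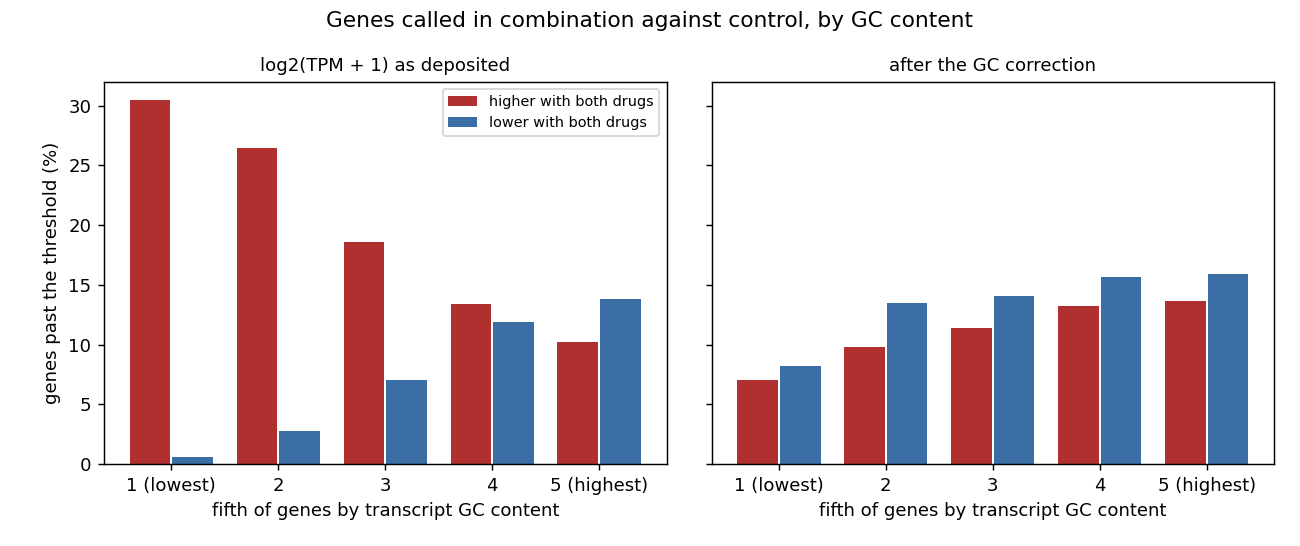
Percent of genes past the threshold in combination against control (vertical axis), in 5 equal groups of genes by the GC content of their transcripts (horizontal axis), higher in red and lower in blue, with values as deposited on the left and after the GC correction on the right. The share of higher genes ran from 30.5% in the GC-poorest group to 10.3% in the GC-richest before the correction. After the correction, which levels the groups by construction, the GC-poorest group had 7.02% higher and 8.21% lower.

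Metal-binding and heat shock genes had the highest rises. Metallothioneins, small cysteine-rich proteins that bind zinc and copper, rose in most of their expressed members, and the small heat shock protein CRYAB and the inducible HSP70 gene HSPA6 rose from very low levels to 44.8 TPM or more. Many genes of the interferon, antigen presentation and NF-kB lists rose as well. The genes that fell included 15 of 25 of cholesterol synthesis and uptake, 22 of 33 of the integrated stress response list, 13 of 30 of protein folding in the endoplasmic reticulum and 9 of 23 of fatty acid and triglyceride synthesis.

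The upstream sequences of some of the genes that rose are shown first because they carry short motifs known to be bound by MTF1, HSF1, interferon-activated factors or NF-kB, on which the lists described below were built. The sequences are the 150 bases before the RefSeq start of each gene in GRCh38.p14, 5′ to 3′ on the gene's strand, with every match of the motif in capitals. Motifs were searched on both strands of the 250 bases before the start, where 2 matches may overlap. The metal response element was searched as TGCACNC or TGCGCNC, and the metallothionein genes MT1B (chr16:56651736-56651885, plus strand) and MT2A (chr16:56608434-56608583, plus strand) held it. The capitals GAGTGCA in MT1B and GTGTGCA in MT2A are matches on the strand opposite to the gene.

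MT1B: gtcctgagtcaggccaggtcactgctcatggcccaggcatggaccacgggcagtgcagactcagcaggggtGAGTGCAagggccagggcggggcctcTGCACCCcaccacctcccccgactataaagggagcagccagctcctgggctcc

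MT2A: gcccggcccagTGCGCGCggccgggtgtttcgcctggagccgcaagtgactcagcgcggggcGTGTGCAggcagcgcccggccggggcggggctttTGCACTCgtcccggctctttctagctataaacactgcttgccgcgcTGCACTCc

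In the 250 bases searched MT1B held 3 matches and MT2A held 7. The element was found before 24.7% of all 27305 genes with a promoter in the table, and before 5 of the 6 tested members of the metallothionein list that have one. The heat shock element, searched as GAANNTTC or TTCNNGAA, was found in HSPA6 (chr1:161524390-161524539, plus strand), where 2 of its 3 matches share bases, and in HSPA1A (chr6:31815393-31815542, plus strand).

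HSPA6: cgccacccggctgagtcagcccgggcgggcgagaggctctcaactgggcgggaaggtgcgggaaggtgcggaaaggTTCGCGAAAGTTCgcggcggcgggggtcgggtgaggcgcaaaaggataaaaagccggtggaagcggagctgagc

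HSPA1A: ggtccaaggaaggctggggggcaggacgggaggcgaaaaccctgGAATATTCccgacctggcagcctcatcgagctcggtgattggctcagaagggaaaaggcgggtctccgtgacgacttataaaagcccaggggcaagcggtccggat

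It was found before 11.8% of all genes and before 9 of 21 heat shock genes. The interferon-stimulated response element, searched as GAAA, 2 bases of any kind and GAAA, was found in GBP1 (chr1:89065209-89065358, minus strand), where it lies on the opposite strand, and 3 times in IFIH1 (chr2:162318685-162318834, minus strand), of which 1 falls in the bases shown.

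GBP1: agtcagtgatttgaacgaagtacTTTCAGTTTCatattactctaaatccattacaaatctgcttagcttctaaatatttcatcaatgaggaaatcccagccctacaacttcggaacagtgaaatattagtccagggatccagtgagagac

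IFIH1: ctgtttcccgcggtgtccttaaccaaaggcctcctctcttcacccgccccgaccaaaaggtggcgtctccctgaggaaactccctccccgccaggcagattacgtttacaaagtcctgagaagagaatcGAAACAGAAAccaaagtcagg

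It was found before 3.07% of all genes and before 11 of 20 interferon response genes. The NF-kB site, searched as GGGA, any base, TT, any base and CC, was found in LTB (chr6:31582426-31582575, minus strand) and TNFAIP3 (chr6:137867109-137867258, plus strand). In both it lies on the strand opposite to the gene.

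LTB: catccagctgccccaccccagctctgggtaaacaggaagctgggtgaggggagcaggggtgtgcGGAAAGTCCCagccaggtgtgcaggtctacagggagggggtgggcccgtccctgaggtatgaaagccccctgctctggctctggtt

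TNFAIP3: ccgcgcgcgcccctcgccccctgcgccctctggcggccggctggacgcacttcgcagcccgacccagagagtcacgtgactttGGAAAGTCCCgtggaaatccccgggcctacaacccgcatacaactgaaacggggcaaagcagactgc

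It was found before 1.27% of all genes and before 8 of 20 NF-kB genes. These lists hold genes known as targets of the same factors, so the shares describe the lists and test nothing. For lists that fell, the ATF4 response element (TGATGNAA) lay before 3.19% of all genes and 3 of 29 ATF4 targets, and a sterol regulatory element (TCAC, any base and CCAC) before 0.88% of all and 1 of 18 cholesterol genes. The AP-1 site (TGANTCA) lay before 6.60% of all genes and 0 of 21 immediate early genes.

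Metallothioneins rose together. Of the 11 metallothionein and zinc exporter genes tested, 9 rose and 0 fell. Their median was 1.26 against 0.20 for all genes. MT1B was listed at 0 TPM in all 3 control libraries and was at 193.6, 142.9 and 170.8 TPM with both drugs, so no fold is given. MT1H was listed at 0 in the controls too and was at 3.16, 1.89 and 2.56 TPM with both drugs. MT1M was at 1.85, 2.15 and 2.94 TPM in control and 105.7, 85.4 and 116.5 TPM with both drugs (4.97 ± 0.31, adjusted p = 3.18e-06). MT1G was at 32.2, 41.2 and 52.2 TPM in control and 563.5, 534.3 and 574.1 TPM with both drugs (3.73 ± 0.26). The libraries of both groups lay far apart for each of these genes. MT1A (2.05 ± 0.29), MT2A (1.26 ± 0.26) and MT1F (1.04 ± 0.16) rose less. MT1X, another member of the cluster, was at 129.8, 207.0 and 229.3 TPM in control and 205.5, 170.6 and 222.9 TPM with both drugs, and its groups overlapped (0.11 ± 0.22, adjusted p = 0.711). These genes are near-identical copies in 1 cluster on chromosome 16, so reads may be split among them. MT1B itself lies at 56651899 to 56653204 in hg38. The list had 7 genes higher and 0 lower both with the GC correction and with median-of-ratios scaling.

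Among the other metal genes, HAMP, the gene of hepcidin, which limits iron export, had the steepest fall of the genes named by size. It was at 146.0, 61.7 and 34.2 TPM in control and 10.6, 12.2 and 14.2 TPM with both drugs (-2.37 ± 0.42, adjusted p = 0.00351). The controls spanned a wide range, and all of them lay above the treated libraries. The second transferrin receptor TFR2 (-1.01 ± 0.19) and ID1 (-0.91 ± 0.10), a target of the BMP signal that drives hepcidin, fell too. SMAD6, the inhibitor in that pathway, was at 29.1, 17.7 and 16.9 TPM in control and 6.27, 7.49 and 6.73 TPM with both drugs (-1.47 ± 0.18). In all, 6 of 17 iron genes fell and 2 rose, the rises being 0 without combination 1, combination 3 or control 3 and 1 without control 1. Among the rises was NCOA4, the receptor that brings ferritin to lysosomes (0.67 ± 0.18). Of 25 copper transport and lipoylation genes, 5 rose and 2 fell, a share of rises near the 19.8% over all genes, against 1 and 5 with the GC correction. The rises were 1 without combination 1, 9 without combination 2, 0 without combination 3, 0 without control 1, 2 without control 2 and 0 without control 3. The metalloreductase gene STEAP3 fell (-0.89 ± 0.11), and the copper exporter ATP7A (0.60 ± 0.19, adjusted p = 0.0404) was not past the threshold with the GC correction (adjusted p = 0.625).

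Heat shock genes of the cytosol split into a strongly induced group and a group that moved little. CRYAB was at 2.03, 2.89 and 1.49 TPM in control and 305.2, 300.9 and 319.0 TPM with both drugs (6.65 ± 0.26, adjusted p = 3.04e-08). HSPA6, a strictly inducible HSP70, was at 0.13, 0.07 and 0.11 TPM in control and 76.3, 44.8 and 66.2 TPM with both drugs (5.81 ± 0.18, adjusted p = 3.15e-09). HSPA1A, the major inducible HSP70, was at 83.8, 99.5 and 118.2 TPM in control and 333.8, 225.6 and 303.7 TPM with both drugs (1.503 ± 0.23). Its near-identical copy HSPA1B (1.05 ± 0.17) and the co-chaperone DNAJB1 (0.58 ± 0.10) rose as well. The constitutive chaperone HSP90AB1 fell by 0.29 ± 0.06 on the log2 scale, and the constitutive HSP70 gene HSPA8 was at 663.0, 743.6 and 832.2 TPM in control and 784.1, 473.9 and 702.1 TPM with both drugs, overlapping (-0.22 ± 0.20, adjusted p = 0.415). Of 25 genes in the list, 10 rose and 2 fell, with a median of 0.47. With the GC correction 8 were higher and 3 lower and the median was 0.04.

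**Figure D2:**
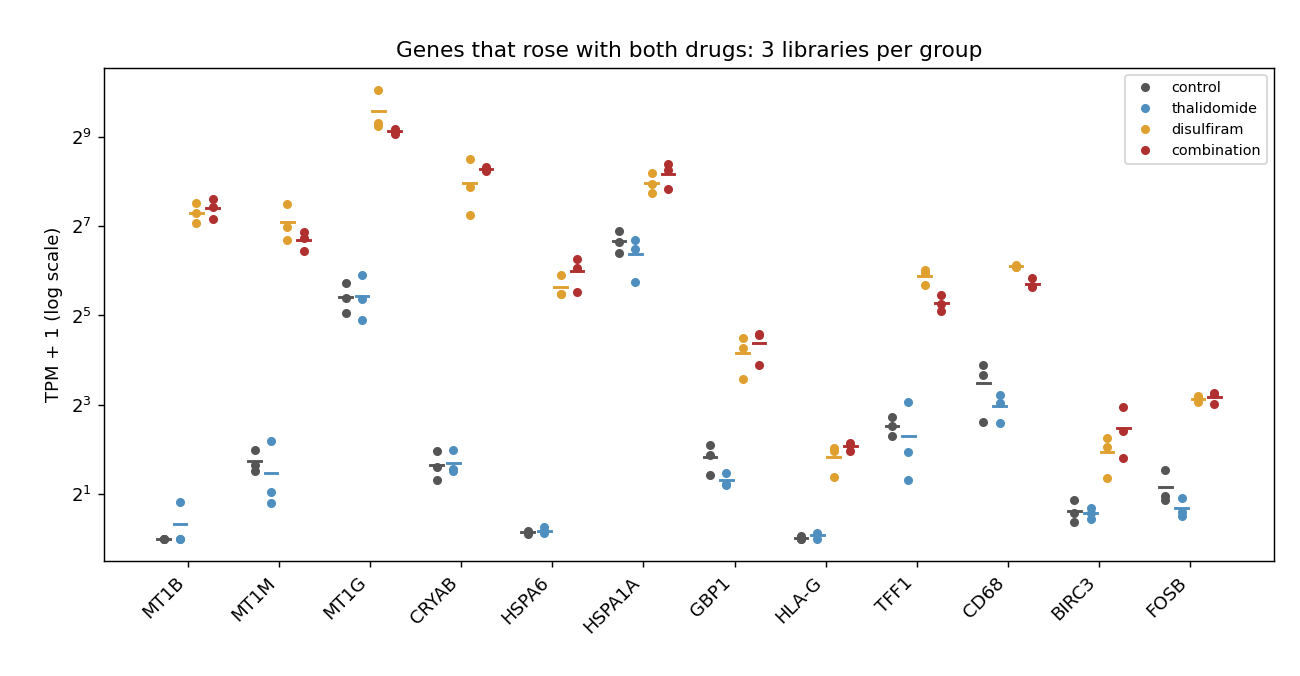
TPM + 1 on a log scale (vertical axis) of 12 genes that rose, one point per library and a line at the mean, in the control, thalidomide, disulfiram and combination groups of 3 libraries. The 3 combination points lie above the 3 control points for every gene shown, for CRYAB at 300.9 to 319.0 TPM against 1.49 to 2.89 TPM. The disulfiram points lie near the combination points, and above all 3 of them for MT1G, TFF1 and CD68.

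Most interferon response genes tested rose in cells given both drugs. Of 26 tested genes of the interferon list, 17 rose and 0 fell, with a median of 0.65 against 0.20 for all genes. GBP1, an interferon-induced GTPase, was at 1.67, 2.67 and 3.27 TPM in control and 22.9, 13.9 and 22.5 TPM with both drugs (2.55 ± 0.26, adjusted p = 0.000132). IRF9, the DNA-binding part of the interferon-activated complex, was at 7.87, 10.0 and 6.92 TPM in control and 21.5, 23.3 and 23.8 TPM with both drugs (1.38 ± 0.14). The RNA sensor IFIH1 rose from 1.55, 2.35 and 1.47 TPM to 6.49, 3.89 and 5.40 TPM (1.16 ± 0.23). The list had 14 genes higher and 0 lower both with the GC correction and with median-of-ratios scaling.

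Class I antigen presentation genes moved the same way. Of 18 tested, 10 rose and 1 fell, with a median of 0.61, and 9 and 1 did so with the GC correction. HLA-G, a class I gene known from placenta, was listed at 0, 0.04 and 0 TPM in control and at 3.41, 3.28 and 2.92 TPM with both drugs. B2M, the light chain of class I molecules, was at 600.9, 645.7 and 654.0 TPM in control and 1374, 959.0 and 1215 TPM with both drugs (0.88 ± 0.12, adjusted p = 0.0011). The peptide transporter gene TAP1 rose (0.73 ± 0.11). Class I genes are similar to each other and variable between people, so reads may be placed on the wrong member. With median-of-ratios scaling 4 members were higher and 1 lower.

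NF-kB and immediate early genes rose in part. Of 24 tested NF-kB subunits, feedback genes and cytokines, 11 rose and 1 fell (median 0.39), against 12 and 2 with the GC correction and 7 rises each with median-of-ratios scaling, without combination 1 or without combination 3. LTB, which encodes a membrane lymphotoxin, was at 3.42, 8.81 and 9.17 TPM in control and 21.2, 20.3 and 27.3 TPM with both drugs (1.64 ± 0.29). TNFAIP3, a feedback inhibitor of NF-kB, was at 7.32, 8.81 and 8.43 TPM in control and 22.1, 19.5 and 21.4 TPM with both drugs (1.26 ± 0.13, adjusted p = 0.000183). The apoptosis inhibitor BIRC3 was at 0.29, 0.83 and 0.48 TPM in control and 6.78, 2.48 and 4.36 TPM with both drugs (1.79 ± 0.29), with combination 2 the lowest of the treated libraries. NFKBIA, the first inhibitor of the pathway, was at 57.4, 54.1 and 58.6 TPM in control and 52.3, 56.9 and 55.8 TPM with both drugs, overlapping (-0.04 ± 0.08, adjusted p = 0.69). Of 30 immediate early genes and feedback inhibitors of MAPK signalling, 14 rose and 4 fell. The AP-1 subunit FOSB was at 0.93, 1.90 and 0.81 TPM in control and 8.48, 7.09 and 8.63 TPM with both drugs (2.06 ± 0.19). FOS (1.54 ± 0.19), FOSL1 (1.31 ± 0.24) and JUN (0.82 ± 0.15) rose with it.

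Other rises of size were spread over several functions. TFF1, a secreted trefoil peptide of mucous epithelia, was at 3.91, 5.59 and 4.72 TPM in control and 33.1, 42.9 and 37.2 TPM with both drugs (2.76 ± 0.32). ALOXE3, an epidermal lipoxygenase, was at 0.51, 0.27 and 0.02 TPM in control and 6.49, 4.69 and 6.74 TPM with both drugs (2.47 ± 0.22). CD68, a lysosomal membrane protein used as a macrophage marker, was at 5.08, 13.8 and 11.7 TPM in control and 49.3, 56.5 and 48.9 TPM with both drugs (2.33 ± 0.27, adjusted p = 0.000273). In all, 15 of 38 lysosome and autophagy genes rose and 1 fell, against 10 and 2 with the GC correction and 7 and 2 with median-of-ratios scaling. Of 15 immune markers, 3 were expressed enough to be tested, with a median of 0.84, and 1 of them rose. It was LYZ, the lysozyme gene, at 4.76, 5.12 and 6.14 TPM in control and 15.6, 6.89 and 9.99 TPM with both drugs (0.84 ± 0.26, adjusted p = 0.0348), and it missed the threshold after the GC correction (adjusted p = 0.249) or median-of-ratios scaling (adjusted p = 0.0736). With 1 library left out at a time the adjusted p of LYZ ranged from 0.0084 to 0.141. CD3D, a subunit of the T cell receptor complex, was at 4.32, 12.26 and 4.94 TPM in control and 10.26, 15.17 and 13.09 TPM with both drugs, overlapping (0.87 ± 0.31, adjusted p = 0.0538). CD14 was at 169.3, 99.1 and 127.0 TPM in control and 80.2, 80.1 and 77.7 TPM with both drugs (-0.69 ± 0.26, adjusted p = 0.069), and with median-of-ratios scaling 1 of the 3 fell and 0 rose. The summed TPM of the 15, most of it from CD14, was 117.9 to 179.5 in control and 102.5 to 108.3 with both drugs, and 2 of the 15 were listed at 0 in all 6 libraries. PECAM1, the 1 of 10 endothelial markers tested, rose from 1.23, 1.41 and 0.69 TPM to 3.79, 3.59 and 5.24 TPM (1.31 ± 0.25), while 4 of the 10 were listed at 0 in all 6 libraries. Of 10 fibroblast and stellate markers 6 were tested and 1 rose, RGS5 (median 0.17), with a summed TPM of 73.8 to 88.7 in control and 68.6 to 96.4 with both drugs, and with the GC correction 1 rose and 1 fell. The 10 hepatocyte markers were all tested, and 3 fell and 0 rose (median -0.38), or 5 fell with the GC correction (median -0.60). Their summed TPM was 1806 to 2868 in control and 1448 to 2225 with both drugs, so the ranges overlapped. The part of other cells in these rises was not tested.

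Several small RNAs also rose, with wide spread among the controls. The U3 small nucleolar RNA SNORD3A was at 0.11, 22.8 and 6.61 TPM in control and 51.6, 63.0 and 105.4 TPM with both drugs (3.60 ± 0.96, adjusted p = 0.0195), and its call was lost under 4 of the 24 alternatives run. The histone gene HIST2H2AA4 was at 0, 19.3 and 5.05 TPM in control and 28.8, 48.1 and 58.5 TPM with both drugs (3.16 ± 0.76), and RNU1-3, a U1 spliceosomal RNA copy, at 2.45, 0 and 0 TPM and 9.74, 12.9 and 18.2 TPM (3.23 ± 0.60). The ribosomal RNA RNA5-8SN4 rose too (2.37 ± 0.34). These genes have near-identical copies, and how far the unstated library preparation shaped their values was not tested.

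Most genes of the sterol list and some of the fatty acid list fell with both drugs. Of 25 tested genes of cholesterol synthesis and uptake, 15 fell and 0 rose, with a median of -0.60 against 0.20 for all genes, and 20 fell with the GC correction. DHCR7, the last enzyme of one branch of cholesterol synthesis, was at 270.0, 224.5 and 194.2 TPM in control and 99.8, 125.5 and 97.6 TPM with both drugs (-1.08 ± 0.14, adjusted p = 0.00074). FDPS, which makes farnesyl diphosphate, was at 1230, 952.8 and 934.8 TPM in control and 508.1, 591.1 and 513.5 TPM with both drugs (-0.94 ± 0.10). All treated libraries lay below all controls for both genes. SREBF1, which encodes the SREBP that drives fatty acid genes, was at 152.6, 162.3 and 162.2 TPM in control and 72.5, 91.5 and 79.8 TPM with both drugs (-0.97 ± 0.13), and SREBF2, which encodes the sterol-regulating form, fell as well (-0.52 ± 0.12).

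Of 23 genes that build fatty acids and triglycerides, 9 fell and 1 rose. FASN, the fatty acid synthase, was at 310.8, 236.6 and 208.1 TPM in control and 76.9, 100.2 and 84.1 TPM with both drugs (-1.51 ± 0.18, adjusted p = 0.000359). The desaturase gene FADS2 was at 480.6, 310.7 and 301.6 TPM in control and 113.5, 161.9 and 120.4 TPM with both drugs (-1.44 ± 0.20), and SCD fell by 1.20 ± 0.17 on the log2 scale. With the GC correction 11 of the list were lower and 0 higher. Of 21 genes of fatty acid oxidation, 5 fell and 1 rose, the falls including the mitochondrial enzymes ECI1 (-0.72 ± 0.11) and CPT2 (-0.46 ± 0.09).

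Most tested genes of the ATF4 list, many of them for amino acid supply, fell, while the stress factors ATF3 and DDIT3 rose. Of 33 tested genes of the integrated stress response list, 22 fell and 3 rose, with a median of -0.57. PHGDH, the first enzyme of serine synthesis, was at 316.2, 302.4 and 300.5 TPM in control and 107.5, 118.3 and 102.7 TPM with both drugs (-1.48 ± 0.11, adjusted p = 1.17e-05). CHAC1, which degrades glutathione, was at 10.6, 29.4 and 27.0 TPM in control and 6.48, 5.23 and 5.70 TPM with both drugs (-1.66 ± 0.31). PSAT1 (-1.33 ± 0.12), SLC7A5, a transporter of large neutral amino acids (-1.28 ± 0.16), and the asparagine synthetase gene ASNS (-1.09 ± 0.15) fell as well. ATF4 itself was at 435.9, 541.7 and 534.8 TPM in control and 354.3, 319.4 and 338.5 TPM with both drugs (-0.57 ± 0.11, adjusted p = 0.00564). ATF3, a stress-induced factor, was at 17.3, 19.4 and 15.7 TPM in control and 50.8, 35.6 and 47.0 TPM with both drugs (1.29 ± 0.18), and DDIT3, the CHOP factor, rose by 0.82 ± 0.15. Of 23 cytosolic aminoacyl-tRNA synthetases, 7 fell and 2 rose, with the steepest fall in the tyrosine enzyme YARS (-0.97 ± 0.10). RARS, the arginine enzyme, was at 55.1, 68.7 and 62.3 TPM in control and 125.5, 80.0 and 111.5 TPM with both drugs, with combination 2 nearest the controls (0.74 ± 0.18, adjusted p = 0.015). The rises of that list were 7 without combination 2 and 0 without combination 1, combination 3 or control 1.

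Some folding genes of the endoplasmic reticulum fell, and most did not pass the threshold. Of 30 tested, 13 fell and 1 rose (median -0.13), and with the GC correction 16 fell and 0 rose (median -0.34). The disulfide isomerase gene PDIA4 was at 271.8, 232.6 and 234.1 TPM in control and 107.0, 111.5 and 95.6 TPM with both drugs (-1.23 ± 0.11, adjusted p = 5.99e-05). The chaperone gene HYOU1 (-1.01 ± 0.14) and HSPA5, which encodes BiP, the main HSP70 of that compartment (-0.45 ± 0.13), fell with it. The oxidase gene ERO1A was the rise (0.98 ± 0.31, adjusted p = 0.0365), and it was not past the threshold with the GC correction (adjusted p = 0.142).

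**Figure D3:**
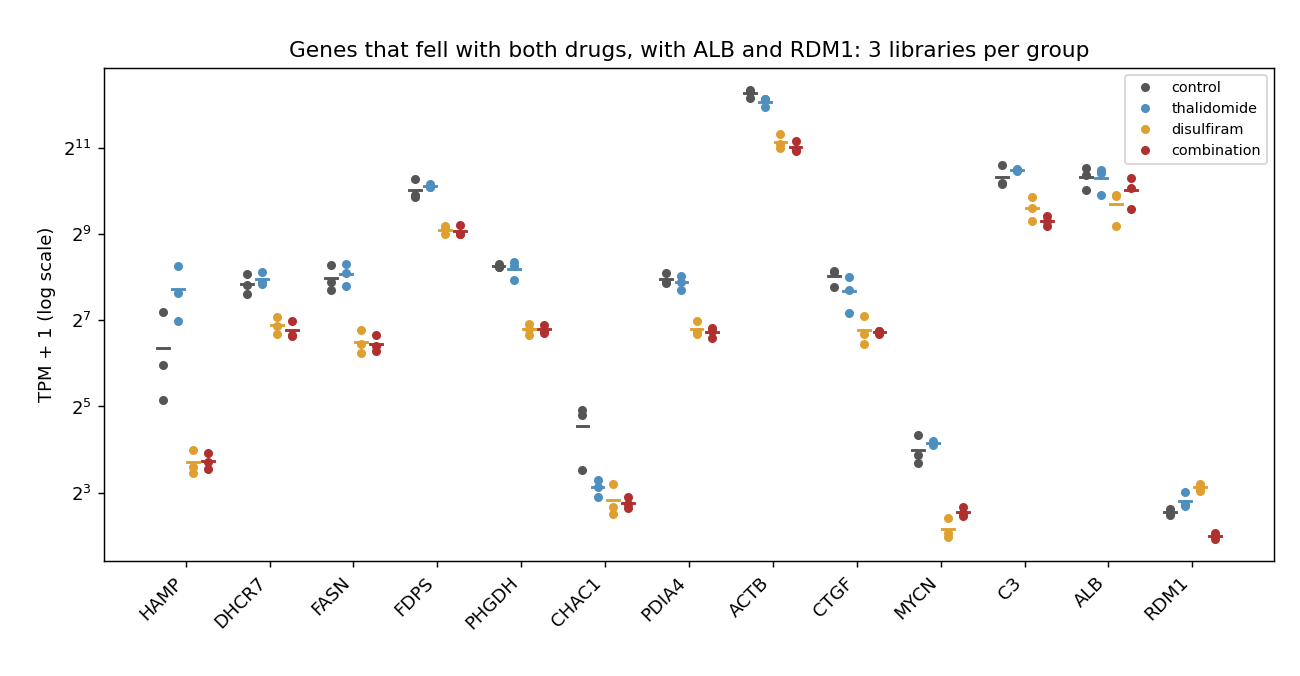
TPM + 1 on a log scale (vertical axis) of 11 genes that fell and of ALB and RDM1, one point per library and a line at the mean, in the 4 groups of 3 libraries. The combination points lie below the control points for each gene but ALB, whose groups overlap, and RDM1 is at 2.82 to 3.16 TPM in the combination against a mean of 7.72 TPM with disulfiram.

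Liver genes were lower in part. Of 37 secreted proteins of hepatocytes, 13 fell and 1 rose (median -0.38), and with the GC correction 16 fell and 0 rose. The falls were 6 without combination 3 and 7 without control 1. Complement C3 was at 1562, 1154 and 1137 TPM in control and 632.5, 686.6 and 581.2 TPM with both drugs (-1.01 ± 0.14). TTR, the thyroid hormone carrier, was at 114.8, 67.3 and 72.8 TPM in control and 41.5, 42.4 and 39.7 TPM with both drugs (-0.98 ± 0.21). ALB, albumin, was at 1472, 1312 and 1046 TPM in control and 1259, 767.5 and 1065 TPM with both drugs, overlapping (-0.32 ± 0.23, adjusted p = 0.288). AFP, a fetal protein that many liver carcinomas make again, was at 310.4, 235.9 and 172.7 TPM in control and 277.4, 104.4 and 147.1 TPM with both drugs (-0.52 ± 0.36, adjusted p = 0.285). With the GC correction ALB (-0.78, adjusted p = 0.0011) and AFP (-0.97, adjusted p = 0.0324) were lower. Of 25 hepatocyte transcription factors, 7 fell and 1 rose. CEBPA, which encodes a factor of hepatocyte differentiation, was at 231.1, 186.6 and 208.2 TPM in control and 86.6, 116.4 and 93.9 TPM with both drugs (-1.07 ± 0.12, adjusted p = 0.000201). The falls in that list were 2 without any 1 of combination 1, combination 3 or control 1, 3 without control 2 and 4 without control 3. HNF4A, the central factor of the lineage, was at 57.0, 58.4 and 53.2 TPM in control and 53.2, 63.3 and 63.8 TPM with both drugs (0.09 ± 0.10, adjusted p = 0.511).

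Single genes of the cytoskeleton, matrix and growth lists were among the clearer falls. ACTB, cytoplasmic beta-actin, was at 4533, 5046 and 5185 TPM in control and 1949, 2279 and 2017 TPM with both drugs (-1.24 ± 0.10, adjusted p = 2.38e-05). TUBB, a beta-tubulin, was at 1227, 1129 and 1156 TPM in control and 590.7, 622.1 and 568.9 TPM with both drugs (-0.98 ± 0.09). In all, 5 of 35 actin, tubulin and related genes fell and 3 rose, a smaller share of rises than the 19.8% over all genes, against 8 and 2 with the GC correction and 10 and 1 with median-of-ratios scaling. The rises included the myosin light chain MYL9 (1.39 ± 0.18). Of 23 matrix and basement membrane genes, 10 fell and 6 rose, the rises being 3 without combination 3 or control 1, and 11 fell and 4 rose with the GC correction or median-of-ratios scaling. The basement membrane linker NID1 fell by 1.15 ± 0.10 and the collagen COL18A1 by 1.13 ± 0.16, whereas LAMB3, a laminin chain, rose by 1.16 ± 0.13. CTGF, a target of YAP, was at 283.7, 215.9 and 275.2 TPM in control and 106.7, 106.8 and 102.3 TPM with both drugs (-1.28 ± 0.20). Of 19 tested genes of the YAP target list, 4 fell and 3 rose (median 0.05), against 7.16% and 19.8% over all genes. With the GC correction 6 of them fell and 1 rose. The falls of that list were 2 without combination 1, combination 3, control 1 or control 3 and 3 without control 2. MYCN was at 19.3, 13.6 and 11.8 TPM in control and 4.50, 5.32 and 4.74 TPM with both drugs (-1.42 ± 0.17), and MYC, named for its role, overlapped at 11.5 to 25.0 TPM and 23.4 to 26.4 TPM (adjusted p = 0.254).

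Of 43 genes of DNA replication, 14 fell and 1 rose (median -0.21), and 23 fell and 0 rose with the GC correction. The falls were 7 without combination 1, 6 without combination 3, 6 without control 1, 9 without control 2 and 6 without control 3. The helicase gene MCM5 was at 84.2, 71.4 and 74.5 TPM in control and 39.2, 46.1 and 44.1 TPM with both drugs (-0.81 ± 0.10), and MCM7 fell by 0.65 ± 0.09. Mitosis genes had 5 higher and 5 lower of 40, with fewer rises than the 19.8% over all genes, against 0 and 10 with the GC correction. The anillin gene ANLN was at 19.4, 24.6 and 22.1 TPM in control and 59.3, 25.7 and 50.04 TPM with both drugs, so that combination 2 was close to the controls and combination 1 and 3 were not. The higher count was 15 without combination 2, 0 without combination 1, combination 3 or control 1, 3 without control 2 and 1 without control 3. The lower count was 2 without combination 1, combination 3, control 1 or control 3 and 3 without control 2.

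Some genes of the glycolysis, cell death and p53 lists rose. Over all genes 19.8% rose and 7.16% fell. The shares were 11.0% and 13.5% with the GC correction, and 9.68% and 12.9% with median-of-ratios scaling. Of 36 genes of glycolysis or the hypoxia response, 12 rose and 2 fell (median 0.41), against 10 and 2 with the GC correction. The rises were 7 without combination 1. SLC2A1, the glucose transporter, was at 43.6, 42.0 and 25.5 TPM in control and 75.5, 83.8 and 67.2 TPM with both drugs (1.04 ± 0.21), and the vasodilator peptide gene ADM rose by 1.00 ± 0.15. Of 25 BCL2 family and apoptosis genes, 13 rose and 2 fell, against 8 and 2 with the GC correction and 8 and 4 with median-of-ratios scaling. The rises were 6 without combination 1, 5 without combination 3, 8 without control 2 and 7 without control 3. PMAIP1, which encodes the death inducer NOXA, was at 3.21, 5.36 and 3.32 TPM in control and 14.1, 6.47 and 11.4 TPM with both drugs (1.19 ± 0.27). BIK, another death inducer of the BCL2 family, rose by 0.99 ± 0.19. Of 22 p53 targets, 8 rose and 0 fell, but 5 rose and 3 fell with the GC correction, and 2 rose and 3 fell with median-of-ratios scaling. The falls with the GC correction and both counts with median-of-ratios scaling were near the shares over all genes. The count of rises was 2 without combination 1, combination 3 or control 3 and 4 without control 2, and 5 without control 1. CDKN1A, a cell cycle inhibitor gene that p53 can induce, is named for its role and was not past the threshold (0.43 ± 0.19, adjusted p = 0.112). Whether p53 acts on these genes in Huh7 cells was not tested.

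Calls in several large lists of housekeeping genes were fewer with the GC correction. Of 79 cytosolic ribosomal proteins, 36 rose and 4 fell (median 0.18), and with the GC correction 11 rose and 5 fell (median 0.05). RPL31 was at 1441, 1523 and 1535 TPM in control and 2757, 1982 and 2534 TPM with both drugs (0.68 ± 0.14), again with combination 2 nearest the controls. Of 45 genes of the proteasome and p97 pathway, 15 rose and 0 fell, but 3 rose and 5 fell with the GC correction. Over all genes 19.8% rose and 7.16% fell, against 11.0% and 13.5% with the correction. Both corrected shares of the proteasome list were below those over all genes. The rises in the ribosomal list were 16 without combination 1, 14 without combination 3 and 21 without control 1, and in the proteasome list 3, 2 and 4, with 7 without control 2 and 8 without control 3. Median-of-ratios scaling gave 7 and 7 for the ribosomal and 3 and 6 for the proteasome list. Over all genes that scaling gave 9.68% higher and 12.9% lower.

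The genes of the drugs' known targets showed no common direction. ALDH2, the mitochondrial enzyme that clears acetaldehyde, was at 46.8, 48.3 and 45.9 TPM in control and 29.6, 31.9 and 32.1 TPM with both drugs (-0.58 ± 0.09, adjusted p = 0.00208). Of 15 aldehyde dehydrogenases, 4 fell and 0 rose, and 8 fell with the GC correction. The falls were 2 without combination 1, 1 without combination 3 and 2 without control 1. ALDH1A1 was at 481.1, 665.9 and 605.3 TPM in control and 605.7, 427.3 and 576.4 TPM with both drugs, overlapping (-0.13 ± 0.18, adjusted p = 0.616), and lower with the GC correction (-0.51, adjusted p = 0.00426). NPLOC4 was at 65.7, 68.7 and 73.2 TPM in control and 51.8, 61.2 and 60.2 TPM with both drugs (-0.26 ± 0.09, adjusted p = 0.0511). The groups did not overlap, and the value just missed the threshold. CRBN, which encodes cereblon, was at 12.2, 10.7 and 9.37 TPM in control and 26.5, 15.3 and 22.2 TPM with both drugs (0.90 ± 0.24, adjusted p = 0.0189). With the GC correction its difference was 0.37 (adjusted p = 0.0606). Of 24 genes of the cereblon ligase and its reported substrates, 6 rose and 0 fell, a share of rises near the 19.8% over all genes. With the GC correction 2 rose and 1 fell, below the 11.0% over all genes, and there were 2 rises without combination 1, combination 3 or control 3, and 3 without control 1. Among the members that rose, ZNF692 was at 21.4, 24.1 and 16.9 TPM in control and 34.0, 31.0 and 35.9 TPM with both drugs (0.68 ± 0.14, adjusted p = 0.00619). It kept the call with the GC correction (0.69, adjusted p = 0.00426). Its mean was 24.4 TPM with disulfiram and 40.4 TPM with thalidomide. SALL4, a substrate degraded with thalidomide at the protein level, was at 2.04, 1.21 and 1.64 TPM in control and 3.05, 1.51 and 2.27 TPM with both drugs, and its transcript was not past the threshold (adjusted p = 0.302).

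**Figure D4:**
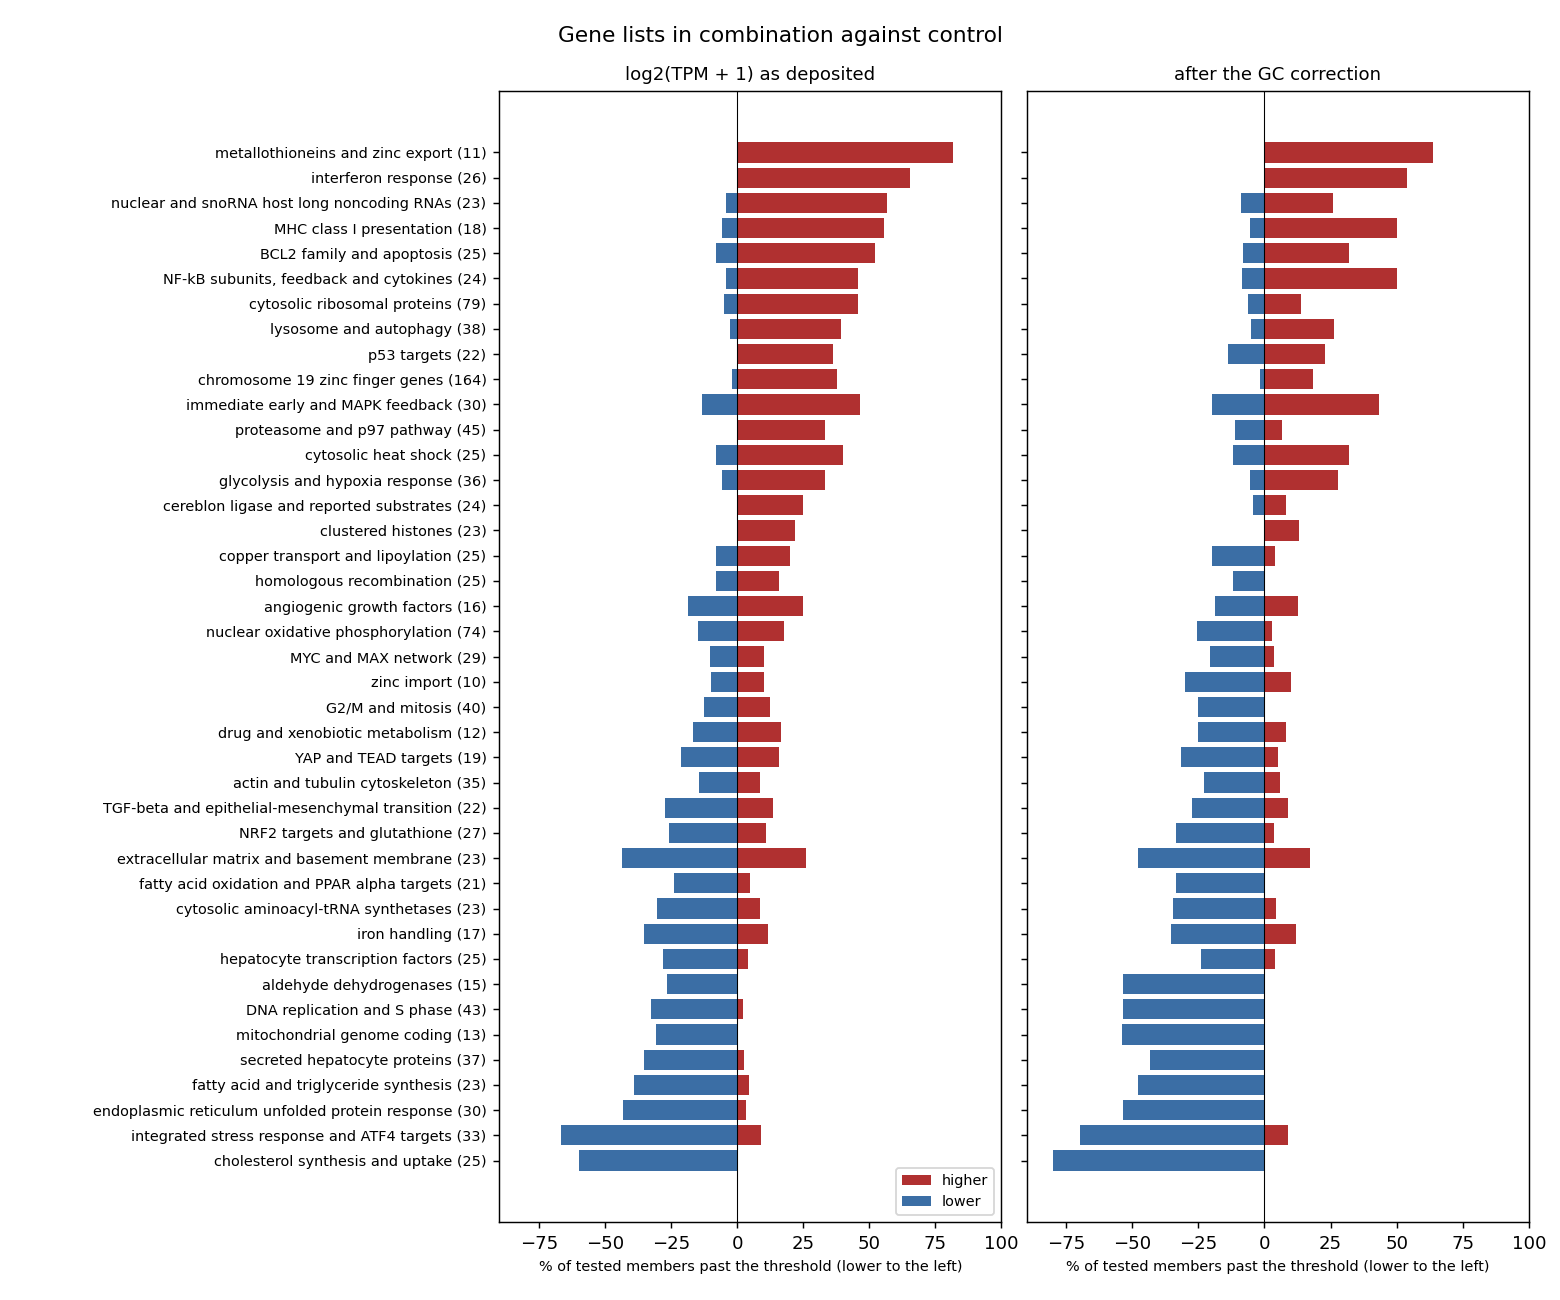
Percent of tested members of each gene list past the threshold in combination against control (horizontal axis, higher in red to the right, lower in blue to the left), with values as deposited on the left and after the GC correction on the right, and the number tested in parentheses. Metallothioneins (9 of 11 higher) and cholesterol genes (15 of 25 lower) had calls in 1 direction only in both panels, whereas proteasome genes went from 15 higher and 0 lower to 3 higher and 5 lower. Over all genes 19.8% were higher and 7.16% lower before the correction, and 11.0% and 13.5% after it.

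Whether both drugs together differed from disulfiram alone was asked in the same fit. RDM1, a protein with an RNA recognition motif linked to the RAD52 family, was the 1 gene of 14534 past the threshold (0.00688%), and 2603 genes were at an unadjusted p below 0.05. It was at 2.82, 3.16 and 2.98 TPM with both drugs and at a mean of 7.72 TPM with disulfiram (-1.13, adjusted p = 0.0142). The controls were at 4.81, 5.12 and 4.60 TPM, above the combination (-0.55 ± 0.12, adjusted p = 0.00983). The count was 287 without combination 2, 3 without control 3, 2 without disulfiram 2, 2 without thalidomide 3, and 0 without combination 1, combination 3, disulfiram 1 or disulfiram 3. The difference between the combination and disulfiram followed GC content across genes (rho -0.67, 14250 genes).

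For some of the genes that moved most against control, the values with each drug alone are set beside those above. These comparisons share the control libraries. The mean TPM was 156.9 for MT1B, 249.0 for CRYAB, 48.8 for HSPA6, 764.5 for MT1G and 16.95 for GBP1 with disulfiram, and 0.26, 2.25, 0.13, 42.6 and 1.47 with thalidomide. Among genes that fell, it was 12.0 for HAMP, 89.9 for FASN and 110.0 for PHGDH with disulfiram, and 209.0, 269.0 and 290.3 with thalidomide. CHAC1 was at 6.09 TPM with disulfiram and 7.70 TPM with thalidomide. None of these genes was past the threshold between the combination and disulfiram, with adjusted p from 0.336 for HSPA6 to 0.984 for PHGDH. Some others of the largest changes lay further from disulfiram, also without passing it. RNU1-3 had a mean of 2.22 TPM with disulfiram, 6.94 with thalidomide and 13.6 with both (2.54, adjusted p = 0.243). H19 was at 13.8, 20.6 and 6.24 TPM (-1.09, adjusted p = 0.248). CA4 (-0.73, adjusted p = 0.284) and TFF1 (-0.61, adjusted p = 0.321) were lower than with disulfiram. That a difference misses the threshold does not show that the groups are alike.

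The interaction, which takes both single-drug differences from that of the combination, asks whether the drugs' effects add on the log2(TPM + 1) scale. Limma called 0 genes, with 1557 at an unadjusted p below 0.05 and a smallest adjusted p of 0.0594, for RDM1. Its estimate was -1.39. The count was 1 with a pseudocount of 0.1, quantile normalization, the GC correction or median-of-ratios scaling, and 1 without control 3. Against thalidomide alone, 5007 genes (34.5%) passed, 3887 higher (26.7%) and 1120 lower (7.71%), with counts of 2350 without combination 1, 2276 without combination 3 and 2520 without thalidomide 1.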

How the data were processed

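The deposited values are TPM per gene computed by the authors, listed to 2 decimals, made with HISAT2 2.0 and StringTie 1.3.0 on hg38, per the submitters' processing notes. TPM keeps no read counts, so the precision that depth gives is unknown, and shares of a fixed total shift together when abundant transcripts change. The labels' extraction text describes droplet capture of single cells from tumour tissue, whereas the table has 1 column per Huh7 library, so library preparation and strand are unclear and overlapping or antisense genes are uncertain.

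Groups follow the labels. On log2(TPM + 1), all 12 libraries were fitted with limma 3.58.1 (R 4.3.3, mean-variance trend, no replicate term) and two-sided moderated tests were adjusted by Benjamini-Hochberg over 14534 genes. The code was tested on simulated data. Symbols, positions, GC content and length came from GENCODE 29, the last 2 as medians over a gene's transcripts. The GC correction subtracted a lowess curve (span 0.3) of each library's deviation on GC content, for the 98.0% of genes with a value. Motifs were searched in the RefSeq promoter table.

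The gene lists, members and rules were chosen with earlier results of these data known. Named genes are the 12 largest rises and falls past the threshold with a mean of at least 5 TPM in 1 group and no overlap of libraries, the 4 largest changes per other comparison, up to 4 per list (2 where none passed) and the drugs' targets with AFP and ALB. Others, such as MT1H, MT1X, MT2A, ATF4, DDIT3, JUN and CD14, were added for their role after their values were seen. Alternatives changed the pseudocount, filter, scaling, GC correction, array weights, groups fitted, replicate block and libraries kept. The analysis without the second libraries together with the GC correction was added after seeing the data. Some genes that these rules picked are left out of the text.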

Additional observations from a re-analysis of the deposited data

How the results depend on the processing

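Of 168 named genes past the threshold between combination and control, 104 lost the call under none of the 24 alternatives. A total of 108 kept it without any 1 combination or control library. An alternative in which a gene was not tested counted as no loss, so not all of the 104 were run in all 24. With a mean of at least 5 TPM, 144 of the 168 were tested. A gene without a GC value was not tested with the GC correction. The counts higher and lower were 1407 and 1881 with median-of-ratios scaling, 1348 and 1814 with quantile normalization, 1570 and 1919 with the GC correction, and 1498 and 1839 with that correction and no second combination and disulfiram libraries. Without those libraries alone 4488 were higher. Leaving out 1 library at a time gave 1509 to 5123 genes, 997 to 3877 higher and 512 to 1246 lower against control, 0 to 287 against disulfiram, 2276 to 5860 against thalidomide and 0 to 1 for the interaction. Array weights gave 9208 genes (6797 higher and 2411 lower), 5755 against disulfiram, 8442 against thalidomide and 19 for the interaction, from an estimate that did not converge and weighted combination 3 at 20.2. Against disulfiram 3 genes were called with no filter and 0 with a mean of at least 5 TPM or without the second libraries, with and without the GC correction. For the interaction 1 was called with a pseudocount of 0.1, median-of-ratios scaling, quantile normalization or the GC correction. ATP7A and UQCRB changed sign, at -0.01 and -0.037, without the second libraries and with the GC correction. The causes were not tested.

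The replicate numbers are not stated to pair libraries, and same-numbered combination and control libraries deviated with a correlation of -0.15 to 0.06 across genes, 2 of 6 correlating best with their own number. Between combination and disulfiram the values were 0.03 to 0.45, with 4 of 6 best with their own number, a hint from the data and not from the design. With the replicate block 3679 genes were called against control and 0 against disulfiram. With the replicate block and the GC correction 1441 were higher and 1770 lower against control, and the interaction had 1. Unknown depth limits what low TPM values can show.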

Other observations

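Zinc finger genes of chromosome 19, which encode DNA-binding repressors of transposable elements, were often higher with both drugs. Of 164 tested, 62 rose and 3 fell, with a median of 0.49 against 0.20 for all genes. ZNF224 was at 3.27, 4.14 and 2.80 TPM in control and 11.0, 9.46 and 11.7 TPM with both drugs (1.42 ± 0.25, adjusted p = 0.00323), and its mean was 5.97 TPM with disulfiram and 4.13 TPM with thalidomide. ZNF69 (1.27 ± 0.24) and ZNF283 (1.24 ± 0.26) rose as well. The median GC content of the list was 46.6% against 50.2% for all genes. With the GC correction, which removes the shift of all genes, 30 rose and 3 fell (median 0.20). With median-of-ratios scaling 41 rose and 4 fell. The rises were 24 without combination 1, 22 without combination 3, 32 without control 1 and 35 without control 3.

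Nuclear and small nucleolar host long noncoding RNAs showed 13 rises and 1 fall among 23 tested, against 6 and 2 with the GC correction and 7 and 3 with median-of-ratios scaling. MALAT1, a nuclear speckle RNA, was at 28.6, 35.9 and 31.4 TPM in control and 122.0, 59.7 and 94.7 TPM with both drugs (1.44 ± 0.30, adjusted p = 0.00718). SNHG6, a host of small nucleolar RNAs, was at 261.4, 252.8 and 238.1 TPM in control and 566.7, 452.4 and 554.9 TPM with both drugs (1.06 ± 0.12). The rises were 5 without combination 1, combination 3 or control 1 and 8 without control 2. The imprinted RNA H19 fell, from 19.4, 26.8 and 14.8 TPM to 6.45, 9.62 and 2.64 TPM (-1.66 ± 0.37).

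The oxidative stress genes NQO1 and PGD, known targets of NRF2, fell, while other members of that list rose. NQO1 was at 665.5, 533.7 and 647.8 TPM in control and 378.2, 365.8 and 371.4 TPM with both drugs (-0.72 ± 0.11, adjusted p = 0.00133), and PGD fell by 0.79 ± 0.08 on the log2 scale. Of 27 genes in that list, 7 fell and 3 rose, against 9 and 1 with the GC correction, and the rises were 1 without combination 1 or combination 3. TXN (0.70 ± 0.16, adjusted p = 0.0113) and GCLC (0.675 ± 0.20, adjusted p = 0.0293) were among the rises. Both missed the threshold with the GC correction (adjusted p = 0.493 and 0.0602). HMOX1, a target of NRF2 that heme also induces, was at 31.0, 36.7 and 29.1 TPM in control and 39.4, 38.3 and 35.8 TPM with both drugs, overlapping (0.23 ± 0.11, adjusted p = 0.129). DDC, which makes dopamine and serotonin, was at 23.1, 20.7 and 21.5 TPM in control and 6.59, 5.50 and 5.55 TPM with both drugs (-1.73 ± 0.15, adjusted p = 4.93e-05). FGF19, a hormone that restrains bile acid synthesis, was at 11.3, 16.3 and 16.99 TPM in control and 4.24, 5.19 and 4.28 TPM with both drugs (-1.49 ± 0.17).

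Protein-coding genes of the mitochondrial genome took 10.4% to 11.1% of the TPM total in the controls and 8.24%, 10.3% and 8.56% in the 3 combination libraries. Of these 13 genes, 4 fell and 0 rose, with MT-ND3 at 6652, 6515 and 6705 TPM in control and 3902, 5409 and 4115 TPM with both drugs (-0.58 ± 0.11). The falls were 1 without combination 1 or combination 3, 6 without combination 2 and 2 without control 3. Of 74 nuclear genes of oxidative phosphorylation, 13 rose and 11 fell, the share of rises being near the 19.8% over all genes, against 2 and 19 with the GC correction. With 1 library left out the rises ranged from 2, without combination 3 or control 1, to 24, without combination 2, and the falls from 5 to 16.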
